A study of Arabidopsis thaliana with 33 samples.

Results

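Transcripts of 10 HSP70 genes of Arabidopsis thaliana were followed through an increase in irradiance. The genes were chosen by locus and by the compartment of their protein, by a rule that used no measured value but was set with earlier results of these data known, and all 10 were found among the 27826 loci measured. They comprised 6 cytosolic genes, namely HSC70-1 (AT5G02500), HSC70-2 (AT5G02490), HSC70-3 (AT3G09440), HSP70-4 (AT3G12580), HSP70B (AT1G16030) and HSP70T-1 (AT1G56410), a pair of plastid genes, cpHsc70-1 (AT4G24280) and cpHsc70-2 (AT5G49910), and a pair of genes of the endoplasmic reticulum (ER), BIP1 (AT5G28540) and BIP2 (AT5G42020).

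HSP70 proteins are ATP-driven chaperones. They bind exposed hydrophobic stretches of unfolded or newly made proteins, J-domain proteins deliver the client and trigger ATP hydrolysis, and nucleotide exchange factors reset the cycle. Constitutive cytosolic forms, called HSC70, assist folding in unstressed cells, whereas other cytosolic forms are best known for their induction by heat under the control of heat shock transcription factors. The plastid forms act in the stroma in protein import and repair, and BiP proteins act in the ER lumen, where they fold secretory proteins and take part in the unfolded protein response.

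Whole-rosette RNA was hybridised to 33 arrays in 11 groups of 3 biological replicates, and each replicate was a pool of 3 rosettes. Low light (LL) was 100 and high light (HL) 550 μmol photons per square metre and second, and for HL the light was raised as the photoperiod of day 25 after sowing began. Each of the 3 accessions (Col-0, Ga-0, Ts-1) was sampled under both lights at 1 hr. Col-0 was additionally sampled under both lights at 3.5 hr and, on day 26, at 25 hr, and in LL alone at −23 hr, on day 24. The accessions are natural wild-type lines without transgenes, and leaf temperature was not held constant when the light rose, so light and warming cannot be told apart here. The comparisons ask which transcripts respond to the step in light, how the response develops over time and whether accessions share it. In whole rosettes, fewer cells of a type and less transcript per cell cannot be told apart either.

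The deposited values carry no decimal separator, so each gene is known up to a power of 10, and levels are given relative to the geometric mean of the same gene in Col-0 in LL at 1 hr. Levels of different genes are therefore not compared, and leaf marker genes could not be checked by their level. Powers of 10 were placed so that arrays of a group, and LL groups, lay as close together as possible, and HL groups of loci absent from the study's list of responsive genes were placed at the smallest change, which can reach at most 3.16-fold. For HSP70-4 the power of 10 in HL was taken from that list in every comparison, so the direction of its response is taken from the list and is not a finding of these digits. HSC70-2 is on the list for Col-0, but its digits gave the same placing without it.

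In Col-0 the cytosolic genes HSP70-4, HSC70-2 and HSC70-3 were called up-regulated at 1 hr, and the plastid genes and BIP1 passed the fold limit at 3.5 or 25 hr, although cpHsc70-2 had already risen at 1 hr below that limit. A gene was called up-regulated when limma gave an adjusted p below 0.05, with Benjamini-Hochberg adjustment over all loci, and the change was above 1.4-fold. In Col-0 at 1 hr 3 of the 10 genes were called, beside 1.94% of all loci. At 3.5 hr 3 of 10 were called, beside 3.94% of all loci. At 25 hr 5 of 10 were called, beside 2.67%. In Ga-0 at 1 hr 4 of 10 were called, beside 1.36%, and in Ts-1 at 1 hr 4 of 10, beside 1.56%. No HSP70 gene was called down-regulated in these 5 comparisons, beside 0.92%, 3.78%, 2.4%, 0.888% and 0.866% of all loci in the same order. HSP70-4 is in each of the up counts, and in each count of separated arrays below, with its direction in HL taken from the list. Placed at the smallest change without the list, its 5 calls would be reversed. Every HL array lay above every LL array for 7 of the 10 genes in Col-0 at 1 hr, for 6 at 3.5 hr and for 6 at 25 hr, beside 9.81%, 17.5% and 15.7% of all loci. The same held for 6 genes in Ga-0, beside 7.86%, and for 5 in Ts-1, beside 9.36%.

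By compartment, the cytosolic genes called were 3 of 6 in Col-0 at 1 hr, 1 at 3.5 hr and 2 at 25 hr, 3 for Ga-0 and 4 for Ts-1. HSP70-4, placed from the list, is in each of these counts, and at 3.5 hr it is the only cytosolic gene called. Of the plastid pair, none was called at 1 hr in any accession, 1 was called at 3.5 hr and both at 25 hr. Of the ER pair, BIP1 was called at 3.5 and 25 hr in Col-0 and at 1 hr in Ga-0, and BIP2 was not called. The median log2 fold change of the 10 genes was 0.43, 0.28 and 0.50 in Col-0 at 1, 3.5 and 25 hr, 0.43 for Ga-0 and 0.28 for Ts-1, whereas the median of all loci lay between −0.02 and −0.00. Over the 5 comparisons 7 of the 10 genes were called at least once, beside 7.11% of all loci, and only HSP70-4 was called in all 5, beside 0.201% of all loci, with its power of 10 taken from the list. HSC70-1, HSP70T-1 and BIP2 were called in none.

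**Figure D1:**
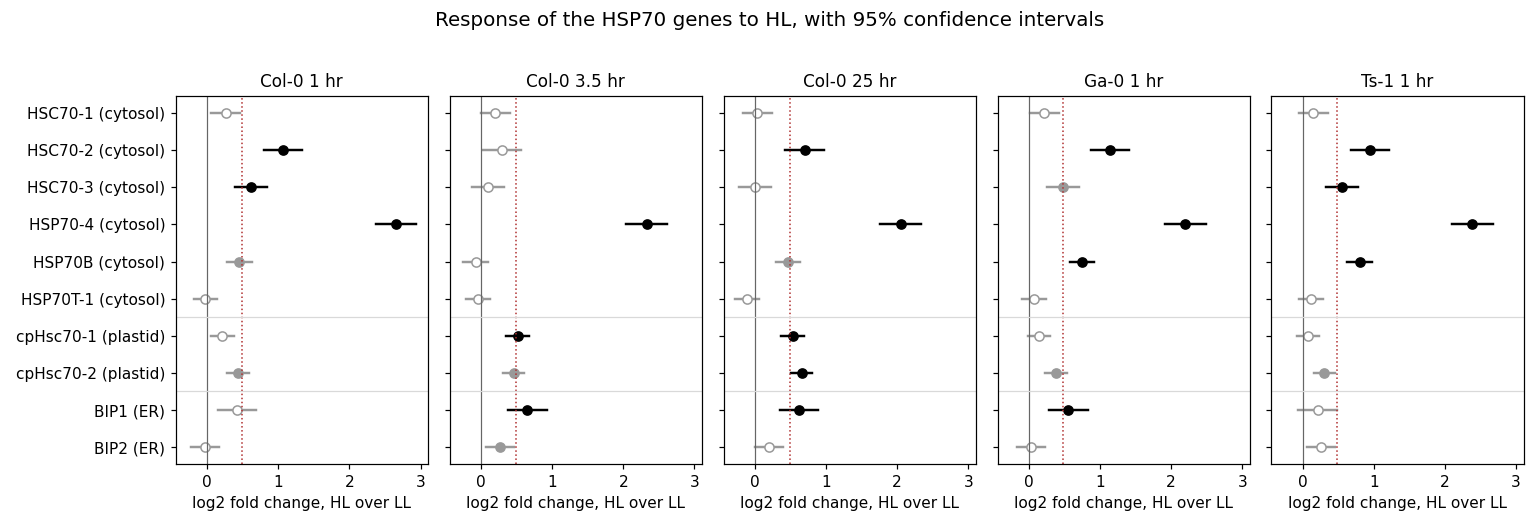
Log2 fold change of HL over LL (x axis) for the 10 HSP70 genes in 5 comparisons of 3 against 3 arrays, with 95% confidence intervals from the limma fit. Black points passed adjusted p and the 1.4-fold limit (dotted line), filled grey points passed adjusted p alone and open points did not pass. With its power of 10 taken from the list, HSP70-4 lay farthest to the right in each panel, between 2.05 and 2.66. Genes absent from the list could reach at most 3.16-fold. No gene was called below 0 with this placing.

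HSP70-4 is a heat-inducible cytosolic HSP70, and its HL change was the largest of the 10 genes in each comparison, given the power of 10 taken from the list. Genes absent from the list could reach at most 3.16-fold, so this rank rests on the placing. In Col-0 the relative level of HSP70-4 was 0.910, 0.874 and 1.26 in LL at 1 hr and 6.60, 5.86 and 6.47 in HL. At 3.5 hr it was 0.342, 0.394 and 0.336 in LL and 1.88, 1.80 and 1.70 in HL. At 25 hr it was 0.989, 1.12 and 0.863 in LL and 4.89, 3.61 and 3.85 in HL. Each HL array lay above each LL array of its time-point, and as placed the HL level was highest at 1 hr and lowest at 3.5 hr. The power of 10 of the 3.5 hr groups is not settled, however, and with both groups 1 power higher the means would be 17.9 in HL and 3.56 in LL, so that HL at 3.5 hr would be the highest group. At 1 hr the log2 fold change was 2.66 ± 0.14 (SE), with adjusted p = 3.1e-15 (limma), followed by 2.33 at 3.5 hr, with adjusted p = 8.48e-14, and 2.05 at 25 hr, with adjusted p = 3.39e-12. With the HL arrays 1 power of 10 lower, the same digits would read as 0.631-fold, 0.502-fold and 0.414-fold.

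In Ga-0 the relative level of HSP70-4 was 1.49, 1.47 and 1.36 in LL and 6.57, 6.93 and 6.37 in HL at 1 hr. In Ts-1 it was 0.747, 0.605 and 0.6 in LL and 3.34, 3.46 and 3.36 in HL. Ts-1 was thus the lowest of the 3 accessions in both lights, and its HL arrays did not overlap those of Col-0 or Ga-0. HSP70-4 of Ga-0 was higher in HL by 2.20 on the log2 scale (adjusted p = 3.62e-13, limma), and Ts-1 had 2.39 (adjusted p = 1.13e-13). The response of Col-0 exceeded that of Ga-0 by 0.46, with a 95% interval from 0.05 to 0.86, but this difference did not pass the adjustment (adjusted p = 0.534), nor did those of Col-0 and Ga-0 from Ts-1.

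HSC70-2 is a cytosolic HSC70 encoded next to HSC70-1 on chromosome 5, with no annotated gene between them in the TAIR10.1 table of RefSeq. In Col-0 at 1 hr its relative level was 0.825, 1.02 and 1.19 in LL and 1.91, 1.95 and 2.47 in HL. At 3.5 hr it was 1.28, 1.01 and 0.803 in LL and 1.26, 1.31 and 1.17 in HL. On the second day it was 1.14, 1.12 and 0.999 in LL and 1.97, 1.69 and 1.63 in HL. HL and LL arrays were apart at 1 and 25 hr and overlapped at 3.5 hr. The transcript rose by 1.07 ± 0.13 on the log2 scale at 1 hr (SE; adjusted p = 6.2e-07, limma). The rise at 25 hr was 0.70 (adjusted p = 0.000217), and the change of 0.30 at 3.5 hr did not pass (adjusted p = 0.115).

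The rise of HSC70-2 at 1 hr was measured in the other accessions as well. In Ga-0 the relative level was 1.15, 1.23 and 1.13 in LL and 2.85, 2.41 and 2.52 in HL. In Ts-1 it was 1.03, 1.19 and 1.2 in LL and 1.92, 2.39 and 2.31 in HL. The arrays of the treatments did not overlap, and the log2 changes were 1.14 for Ga-0 (adjusted p = 2.38e-07, limma) and 0.95 for Ts-1 (adjusted p = 5.93e-06). The responses of the accessions differed by at most 0.19, and none of these differences passed the adjustment.

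HSC70-1, the neighbour of HSC70-2 and the HSC70 usually described as constitutive, changed less. In Col-0 at 1 hr its relative level was 0.971, 0.911 and 1.13 in LL and 1.06, 1.27 and 1.27 in HL, which overlap. Its log2 fold changes lay between 0.03 and 0.26 in the 5 comparisons, and none passed, the lowest adjusted p being 0.133. The ratio of HSC70-2 to HSC70-1 within an array was higher in HL than in LL, on the log2 scale by 0.81 at 1 hr and 0.67 at 25 hr for Col-0, 0.93 for Ga-0 and 0.80 for Ts-1. In these 4 comparisons no HL array overlapped an LL array, with the smallest p that 3 against 3 arrays allow (p = 0.1, two-sided exact permutation test). At 3.5 hr the difference was 0.10 and the arrays overlapped (exact p = 0.7). How far probes of one of these similar genes also bind transcripts of another was not tested.

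HSC70-3, a further cytosolic HSC70, rose at 1 hr and not at the later times. In Col-0 its relative level at 1 hr was 0.991, 0.893 and 1.13 in LL and 1.55, 1.46 and 1.57 in HL. At 3.5 hr it was 0.581, 0.549 and 0.512 in LL and 0.599, 0.581 and 0.567 in HL. At 25 hr it was 1.06, 1.01 and 0.954 in LL and 1.21, 0.910 and 0.934 in HL. At 3.5 hr arrays of both treatments lay below all other Col-0 arrays, and HL and LL overlapped at 3.5 and 25 hr. HSC70-3 rose by 0.61 ± 0.11 at 1 hr (SE of the log2 fold change; adjusted p = 0.000241, limma), against 0.09 and 0.00 at 3.5 and 25 hr, with 95% intervals of −0.13 to 0.32 and −0.22 to 0.23. In Ts-1 it was 0.55 (adjusted p = 0.00106), but 0.39 without replicate 2 of the LL arrays, below the 1.4-fold limit. In Ga-0 it was 0.48 (adjusted p = 0.0047), just under that limit of 0.485.

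HSP70B, a heat-inducible cytosolic HSP70, was called in Ga-0 and Ts-1 and stayed below 1.4-fold in Col-0. Its relative level at 1 hr was 0.977, 0.994 and 1.03 in LL and 1.44, 1.27 and 1.4 in HL for Col-0. In Ga-0 it was 1.16, 1.12 and 1.08 in LL and 1.69, 1.84 and 2.13 in HL. In Ts-1 it was 0.924, 0.953 and 0.976 in LL and 1.79, 1.4 and 1.80 in HL. HL lay above LL in each accession without overlap. Its log2 fold change was 0.45 ± 0.09 in Col-0 (SE; adjusted p = 0.000482, limma). It was 0.75 in Ga-0 (adjusted p = 2.26e-07), and Ts-1 had 0.80 (adjusted p = 5.22e-08). The difference of Col-0 from Ts-1 was −0.35, with a 95% interval from −0.59 to −0.10, but did not pass the adjustment over all loci (adjusted p = 0.227), and that from Ga-0 was −0.30 (adjusted p = 0.497).

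At 3.5 hr HSP70B was at 1.16, 1.2 and 1.17 in LL and at 1.1, 1.05 and 1.2 in HL, and at 25 hr at 1.05, 0.967 and 0.962 in LL and 1.45, 1.26 and 1.4 in HL. The treatments overlapped at 3.5 hr, where the LL level was slightly raised, and were apart at 25 hr. The change was −0.08 on the log2 scale at 3.5 hr (adjusted p = 0.626, limma) and, at 25 hr, 0.46 (adjusted p = 0.000162), again below the fold limit.

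HSP70T-1, annotated as ERD2 in RefSeq after its early response to dehydration, varied least. Its group means spanned 0.22 on the log2 scale over the 11 groups, beside a mean within-group SD of 0.10. Its HL changes ranged from −0.11 to 0.12 on the log2 scale in the 5 comparisons, and no adjusted p was below 0.422.

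**Figure D2:**
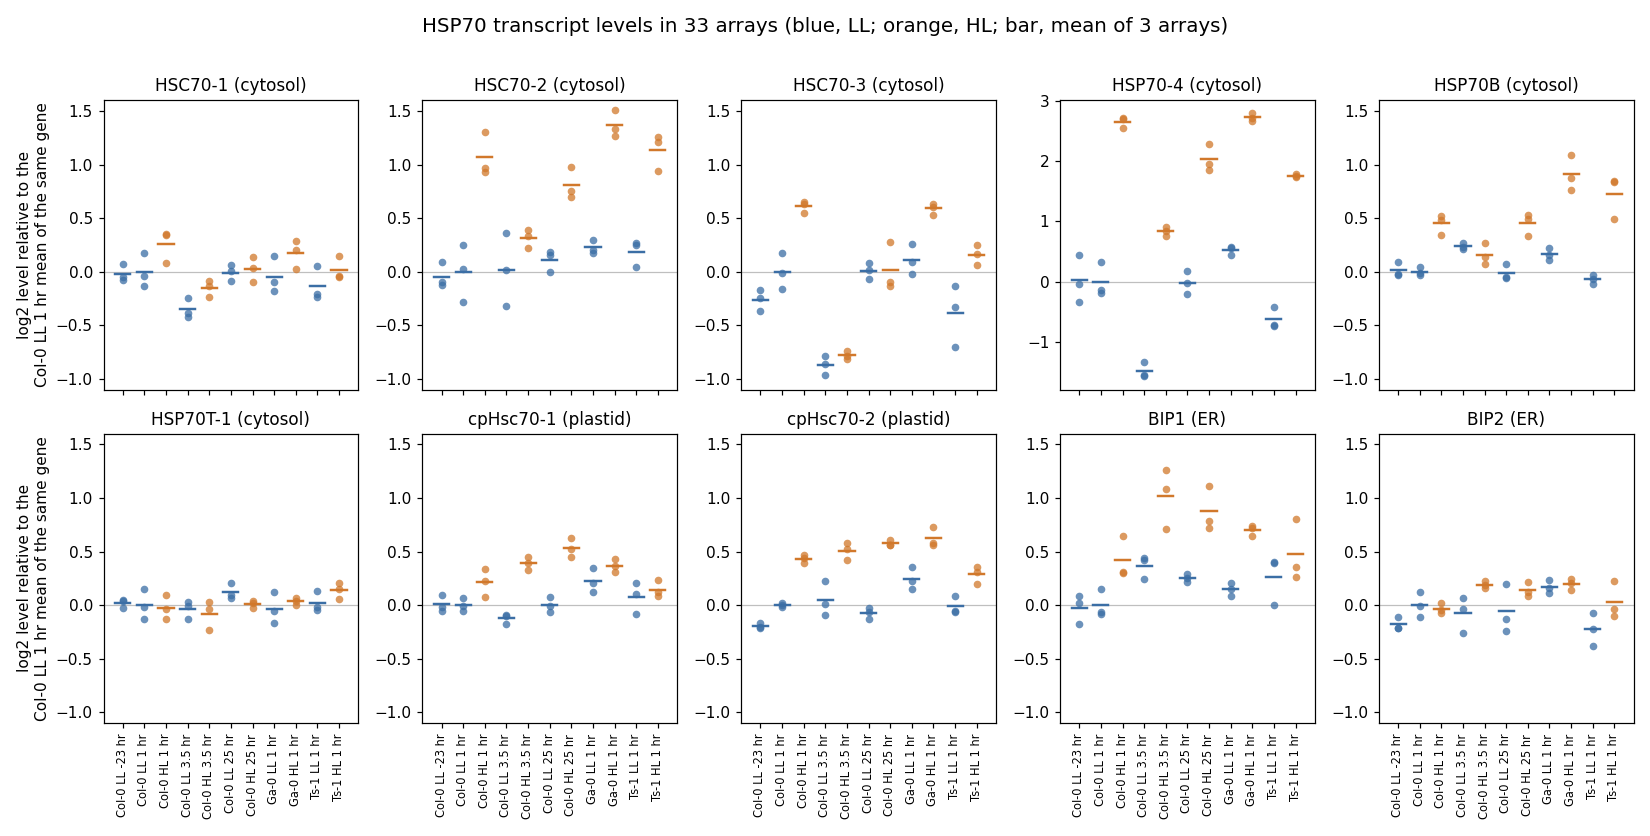
Log2 level of each HSP70 gene relative to its own mean in Col-0 LL at 1 hr (y axis) in all 33 arrays, by group (x axis). Blue points are LL arrays, orange points are HL arrays and bars are means of 3, and the HSP70-4 panel has a wider scale than the others. HSC70-2, HSC70-3, HSP70B, plastid cpHsc70-2 and, as placed from the list, HSP70-4 stood above their LL arrays in all 3 accessions at 1 hr. The group means of HSP70T-1 stayed within a span of 0.22.

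In the Col-0 time course the difference in response between time-points was tested directly. For this test of differences no fold limit was used. It was passed by 3 of the 10 genes in at least 1 of the 3 pairs of time-points, beside 16.7% of all loci. Whether this count exceeds that share was not tested. The response of HSC70-2 was larger at 1 hr than at 3.5 hr by 0.77 ± 0.19 (SE; adjusted p = 0.00544, limma). That of HSC70-3 was larger at 1 hr than at 3.5 hr by 0.52 (adjusted p = 0.0274) and than at 25 hr by 0.61 (adjusted p = 0.0158). That of HSP70B was larger at 1 hr than at 3.5 hr by 0.53 (adjusted p = 0.00335) and differed between 3.5 and 25 hr by −0.54 (adjusted p = 0.00304).

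The differences of HSC70-3 were the least firm of these. That between 1 and 3.5 hr lost its call without any 1 of 8 of the 12 arrays involved, with adjusted p between 0.0518 and 0.0934, and that between 1 and 25 hr without LL 1 hr replicate 2 (adjusted p = 0.0637), HL 25 hr replicate 2 (adjusted p = 0.0611) or HL 25 hr replicate 3 (adjusted p = 0.0517). For HSP70-4 the response was larger at 1 hr than at 25 hr by 0.61, which did not pass (adjusted p = 0.0733, limma). The plastid and ER genes had changes in the opposite order, larger at 3.5 and 25 hr than at 1 hr, but none of these differences passed in the ordinary fit. In a robust fit 8 of the 10 genes passed in at least 1 pair of time-points, among them all 4 plastid and ER genes, with adjusted p from 0.0141 for cpHsc70-2 to 0.0347 for BIP1. The share of all loci passing in that fit was not determined, so this count has no background beside it. The nearest in the ordinary fit were those of cpHsc70-1, −0.30 between 1 and 3.5 hr (adjusted p = 0.084) and −0.32 between 1 and 25 hr (adjusted p = 0.0996).

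**Figure D3:**
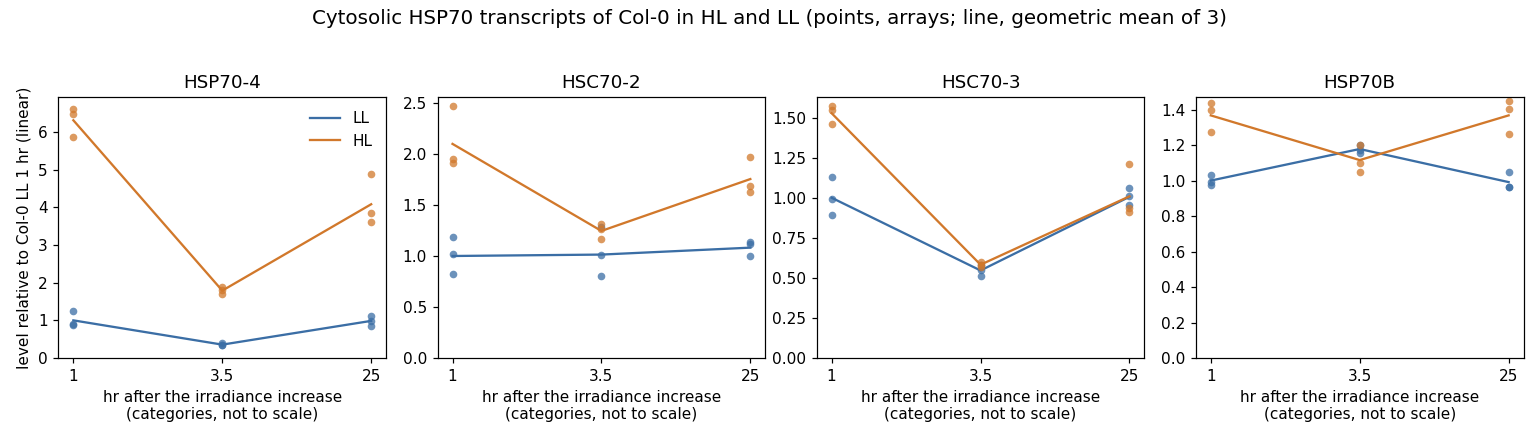
Level of 4 cytosolic HSP70 genes in Col-0 relative to LL at 1 hr (y axis, linear, from 0, with its own scale for each gene) at 1, 3.5 and 25 hr (x axis, categories). Points are arrays and lines join geometric means of 3, orange for HL and blue for LL. HL and LL lay apart at each time for HSP70-4, whose 3.5 hr groups would both stand 1 power of 10 higher under the other placing, and came together at 3.5 hr for HSC70-2, HSC70-3 and HSP70B.

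Both plastid HSP70 genes were higher in HL on the second day. For cpHsc70-2 the relative level at 1 hr was 1.00, 0.986 and 1.01 in LL and 1.35, 1.31 and 1.38 in HL. At 3.5 hr it was 0.940, 1.01 and 1.17 in LL and 1.44, 1.5 and 1.34 in HL. At 25 hr it was 0.954, 0.979 and 0.913 in LL and 1.48, 1.53 and 1.48 in HL. The treatments did not overlap at any time, and all 5 comparisons passed the adjusted p. Only the change at 25 hr, 0.65 ± 0.07 on the log2 scale (SE; adjusted p = 6.06e-08, limma), also exceeded 1.4-fold. The other changes were 0.43 at 1 hr, 0.46 at 3.5 hr, 0.38 for Ga-0 and 0.30 for Ts-1.

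For cpHsc70-1 the relative level was 0.995, 0.962 and 1.05 in LL and 1.17, 1.05 and 1.26 in HL at 1 hr. At 3.5 hr it was 0.934, 0.886 and 0.938 in LL and 1.31, 1.37 and 1.26 in HL. By 25 hr it was 0.997, 1.05 and 0.959 in LL and 1.44, 1.37 and 1.54 in HL. HL did not overlap LL at any of the 3 times, narrowly so at 1 hr. The transcript rose by 0.51 ± 0.08 on the log2 scale at 3.5 hr (SE; adjusted p = 6.25e-06, limma), and the rise at 25 hr was 0.53 (adjusted p = 6.63e-06). Both were close to the fold limit and fell to 0.48 without HL 3.5 hr replicate 2 or HL 25 hr replicate 3. At 1 hr the changes were 0.21 for Col-0, 0.14 for Ga-0 and 0.07 for Ts-1, and none passed. The ratio of cpHsc70-2 to cpHsc70-1 within an array was higher in HL at 1 hr, on the log2 scale by 0.22 for Col-0, 0.24 for Ga-0 and 0.23 for Ts-1, with no overlap of HL and LL arrays (p = 0.1 for each, two-sided exact permutation test, the smallest possible).

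Of the BiP genes, BIP1 was called in 3 comparisons and BIP2 in none. For BIP1 the relative level in Col-0 at 1 hr was 0.956, 0.945 and 1.11 in LL and 1.57, 1.24 and 1.23 in HL. At 3.5 hr it was 1.34, 1.18 and 1.36 in LL and 2.12, 2.39 and 1.64 in HL. By 25 hr it was 1.23, 1.19 and 1.16 in LL and 2.17, 1.72 and 1.65 in HL. HL arrays stood above LL arrays at each time, and the HL level was highest at 3.5 hr. Its log2 fold change at 1 hr was 0.42 ± 0.13 (SE; adjusted p = 0.0523, limma). It rose by 0.65 at 3.5 hr (adjusted p = 0.000401), and the rise at 25 hr was 0.62 (adjusted p = 0.000991). In Ga-0 it was 0.56 (adjusted p = 0.00775). In Ts-1 it was 0.21 (adjusted p = 0.472), with HL arrays at 1.2, 1.75 and 1.28 among LL arrays at 1.31, 1.32 and 1.00.

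For BIP2 the log2 fold change lay between −0.03 and 0.27, and only that at 3.5 hr passed the adjusted p (0.27, adjusted p = 0.047, limma), below the fold limit. In Ts-1 BIP2 changed by 0.25 (adjusted p = 0.141), beside 0.21 for BIP1. At 3.5 hr the relative level of BIP2 was 0.977, 1.05 and 0.835 in LL and 1.17, 1.14 and 1.12 in HL, without overlap. The ratio of BIP1 to BIP2 within an array was higher in HL, on the log2 scale by 0.45 at 1 hr and 0.42 at 25 hr for Col-0 and 0.53 for Ga-0, without overlap (p = 0.1 for each, two-sided exact permutation test), and by 0.38 at 3.5 hr (exact p = 0.2), and it differed by −0.04 for Ts-1 (exact p = 0.9). Probe sharing between these similar genes was not tested.

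Without any change of light, HSP70-4 and HSC70-3 were called between accessions. In LL at 1 hr, 2 of the 10 genes were called in at least 1 pair of accessions, beside 12% of all loci. Whether this count exceeds that share was not tested. HSP70-4 was higher in Ga-0 than in Col-0 by 0.53 on the log2 scale (adjusted p = 0.00707, limma), lower in Ts-1 than in Col-0 (−0.63, adjusted p = 0.00113), and higher in Ga-0 than in Ts-1 by 1.15 (adjusted p = 1.89e-07). The 3 accessions did not overlap in LL. The first of these changes was 0.46 without Col-0 LL replicate 1 and 0.43 without replicate 2 (adjusted p = 0.0585), and the second −0.46 without replicate 3, all inside the fold limit.

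HSC70-3 was at 0.987, 1.2 and 1.06 in Ga-0 and at 0.911, 0.613 and 0.796 in Ts-1 in LL at 1 hr, without overlap. The difference was 0.50 (adjusted p = 0.00131, limma), and 0.34 without Ts-1 LL replicate 2 or 0.42 without Ga-0 LL replicate 2, both below the fold limit. Smaller differences that passed the adjusted p alone were those of Ga-0 from Col-0 in cpHsc70-1 (0.23) and cpHsc70-2 (0.24), of Ts-1 from Col-0 in HSC70-3 (−0.39), and of Ga-0 from Ts-1 in cpHsc70-2 (0.25) and BIP2 (0.39). The array probes were designed on a reference sequence, and the effect of sequence differences in Ga-0 and Ts-1 on them was not tested. The response to HL itself differed between accessions for 0 of the 10 genes with limma at adjusted p below 0.05, beside 0.805% of all loci. At an unadjusted p below 0.05 it differed for 3 genes, and in a robust fit for 3. The share of all loci was not determined for these last counts.

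The LL level of some of the genes in Col-0 also differed within the day. Between 1 and 3.5 hr in LL, 2 of the 10 genes were called, beside 7.41% of all loci. Whether this count exceeds that share was not tested. HSC70-3 fell by 0.87 on the log2 scale (adjusted p = 2.76e-07, limma). HSP70-4 changed by −1.49 (adjusted p = 9.96e-10), but this size is near the 3.16-fold limit of the placing. If both 3.5 hr groups of HSP70-4 were 1 power of 10 higher, the change would read as 1.83, so its direction is not settled, whereas the HL change at 3.5 hr would be the same. HSC70-1 (−0.35, adjusted p = 0.00903), BIP1 (0.37, adjusted p = 0.0454) and HSP70B (0.24, adjusted p = 0.0462) passed the adjusted p alone. Between the LL groups of Col-0 taken 1 hr into the photoperiod on days 24, 25 and 26, 0 of the 10 genes were called with limma, beside 0.69% of all loci. An unadjusted p below 0.05 in at least 1 pair was found for 3 genes, and the share of all loci at that limit was not determined.

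Ordered by group mean, and with the 3.5 hr groups as placed, HSP70-4 ran from 6.62 in Ga-0 HL and 6.31 in Col-0 HL at 1 hr, which overlapped, through 4.08 in Col-0 HL at 25 hr, 3.38 in Ts-1 HL, 1.79 in Col-0 HL at 3.5 hr and 1.44 in Ga-0 LL to a plateau of 0.99 to 1.01 in Col-0 LL at 1, 25 and −23 hr, and then to 0.65 in Ts-1 LL and 0.36 in Col-0 LL at 3.5 hr. With the 3.5 hr groups 1 power of 10 higher, Col-0 HL at 3.5 hr (17.9) would come first, Col-0 LL at 3.5 hr (3.56) would lie between Col-0 HL at 25 hr and Ts-1 HL, and Ts-1 LL would be last. For HSC70-2 the 4 highest groups were the HL groups other than Col-0 at 3.5 hr, from 2.59 in Ga-0 to 1.75 in Col-0 at 25 hr, and the 7 groups below them, from 1.25 to 0.97, overlapped each with the next. For HSC70-3 the HL groups of Col-0 (1.53) and Ga-0 (1.51) at 1 hr overlapped at the top, and the 3.5 hr groups in HL (0.58) and LL (0.55) overlapped at the bottom. For BIP1 the order was led by Col-0 HL at 3.5 hr (2.02) and 25 hr (1.83), whose arrays overlapped, and for cpHsc70-2 by Ga-0 HL (1.54), Col-0 HL at 25 hr (1.49) and at 3.5 hr (1.42).

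Over the 11 group means the genes fell into patterns, given here as a description because groups share accession, light and time. The correlation was 0.94 between HSC70-1 and HSC70-3, 0.93 between HSC70-2 and HSP70B, 0.91 between HSC70-2 and HSP70-4 as placed (0.57 with the 3.5 hr groups of HSP70-4 1 power of 10 higher), 0.89 between the plastid genes and 0.64 between BIP1 and BIP2. BIP1 was nearer to cpHsc70-2 (0.84) than to BIP2, and was at −0.06 with HSC70-3. HSP70T-1 was between −0.25 and 0.37 with all others.

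Among 4590 named loci whose group means spanned at least 0.5, those most like each gene over the 11 group means were given by Pearson r. HSP70-4 was most like Hop3 (0.98), which encodes an HSP70-HSP90 organizing protein, and LACS8 (0.98), but this rests on the placing. With its 3.5 hr groups 1 power of 10 higher, r was 0.58 for Hop3 and 0.47 for LACS8, and the most alike were VHA-E3 (0.95) and HSP101 (0.95). HSC70-2 was most like BAG6 (0.98) and ERDJ3A (0.98), a co-chaperone gene and a J-domain gene of the ER. In Col-0 at 1 hr BAG6 changed 7.26-fold and ERDJ3A 4.69-fold. Both are beyond 3.16-fold, so these likenesses also rest on powers of 10 taken from the list. HSC70-3 was most like BAG5 (0.98) and SGT1A (0.97), and HSC70-1 like BAM7 (0.96) and BAG5 (0.96). HSP70B was most like TRFL4 (0.95) and MIR156h (0.94). For cpHsc70-1 they were RD20 (0.91) and DHDPS2 (0.90), for cpHsc70-2 the chaperonin gene HSP60 (0.97) and the plastid HSP90 gene CR88 (0.96), and for BIP1 the co-chaperonin gene CPN10 (0.96) and iPGAM2 (0.96). HSP70T-1 and BIP2 spanned less than 0.5 and were not searched.

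The rest of the HSP70 family and the partners of each compartment were counted by the same limits. Beside these counts, the shares of all loci called up were 1.94%, 3.94% and 2.67% in Col-0 at 1, 3.5 and 25 hr. They were 1.36% for Ga-0 and 1.56% for Ts-1. Of 8 further genes, which encode mitochondrial HSP70s, BIP3, a truncated HSP70 and HSP110 proteins, 3 were called up in Col-0 at 1 hr, 2 at 3.5 hr and 3 at 25 hr, 3 for Ga-0 and 3 for Ts-1, and none down. The largest at 1 hr in Col-0 were mitochondrial HSC70-5 (1.53, adjusted p = 6.98e-14, limma) and the truncated HSP70T-2 (1.38, adjusted p = 1.6e-10). HSC70-5 was called in all 5 comparisons. The other mitochondrial gene, mtHSC70-1, changed by 0.01 at 1 hr, rose by 0.93 at 3.5 hr (adjusted p = 1.01e-09), had 0.59 at 25 hr (adjusted p = 6.84e-06), and its response was smaller at 1 than at 3.5 hr (−0.92, adjusted p = 4.09e-06). BIP3, the BiP gene best known as a marker of the unfolded protein response, was called in none, with changes from −0.06 to 0.33.

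Of 10 cytosolic partners 5 were called up in Col-0 at 1 hr, 1 at 3.5 hr and 2 at 25 hr, 4 for Ga-0 and 5 for Ts-1. HOP3 (3.19, adjusted p = 6.96e-16, limma) and the nucleotide exchange factor Fes1A (2.23, adjusted p = 4.79e-16) led at 1 hr, both beyond the 3.16-fold reach of the digits alone. Their power of 10 there was taken from the study's list, so the direction of these changes is not a finding of these digits. At 3.5 hr a pair of other exchange factor genes, Fes1B (−1.22, adjusted p = 1.19e-11) and Fes1C (−0.60, adjusted p = 2.89e-06), were called down, beside 3.78% of all loci. In LL between 1 and 3.5 hr 4 of the 10 fell, namely Fes1A (−1.17), HOP3 (−1.15) and the J-domain genes ATJ2 (−0.67) and ATJ3 (−0.53), and Fes1B rose by 1.39. Of all loci 7.41% were called in either direction between these LL groups.

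Of 8 plastid partners 2 were called up at 1 hr in Col-0, 3 at 3.5 hr, 3 at 25 hr, 2 for Ga-0 and 0 for Ts-1 with limma. The largest at 1 hr were the disaggregase ClpB3 (0.84, adjusted p = 9e-07) and HSP90C (0.80, adjusted p = 5.55e-09), and both were called at all 3 times in Col-0. In Ts-1 they changed by 0.39 and 0.48, which passed the adjusted p alone. Of 15 ER partners 3 were called up at 1 hr, 4 at 3.5 hr, 4 at 25 hr, 2 for Ga-0 and 1 for Ts-1. ERdj3A, an ER J-domain protein, led at 1 hr with 2.23 (adjusted p = 2.39e-16), again beyond 3.16-fold, followed by the transcription factor gene bZIP28 (0.58, adjusted p = 2.36e-06). In LL between 1 and 3.5 hr 7 of the 15 ER partners rose, from 0.55 for calreticulin CRT1 to 0.93 for the disulfide isomerase PDIL1-1, and none was called down. This stands beside 7.41% of all loci called in either direction.

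**Figure D4:**
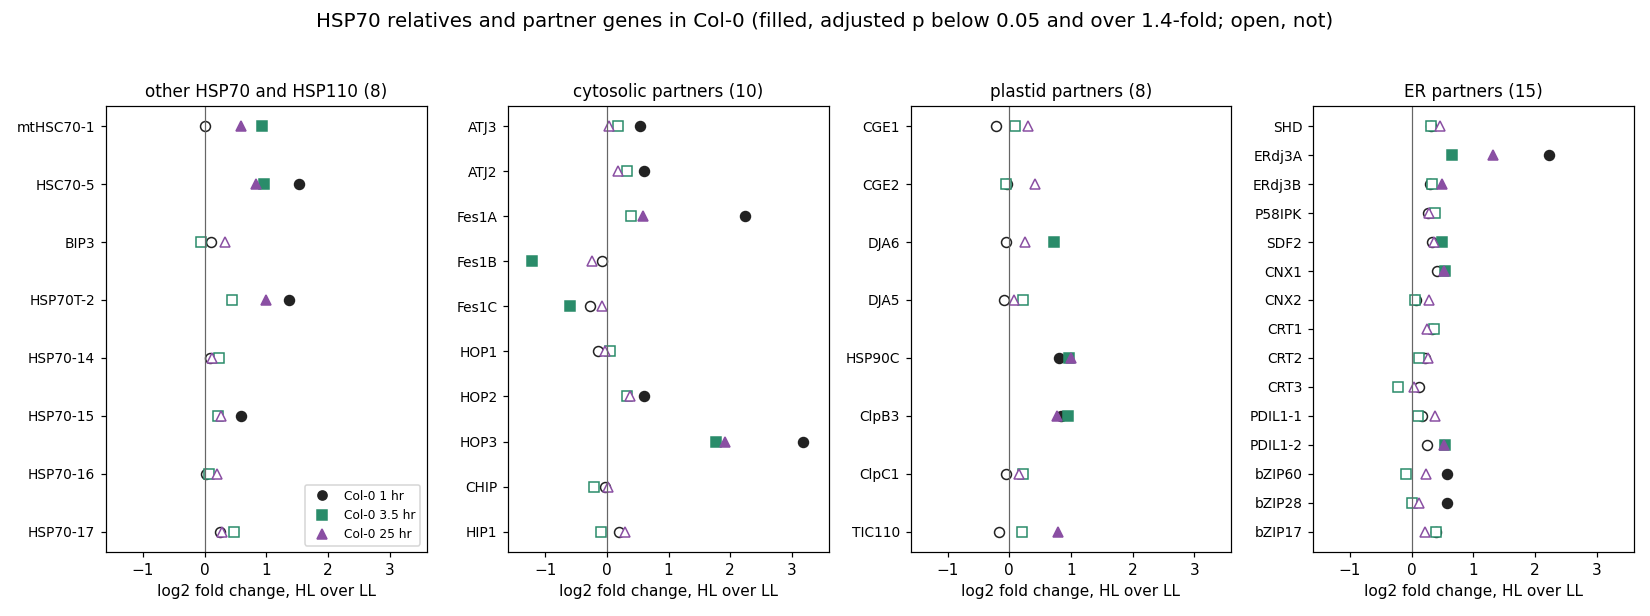
Log2 fold change of HL over LL in Col-0 (x axis) for 8 further HSP70 and HSP110 genes and for 10 cytosolic, 8 plastid and 15 ER partner genes. Symbols give 1, 3.5 and 25 hr, and filled symbols passed adjusted p and the 1.4-fold limit. HOP3, Fes1A and ERdj3A, as placed from the study's list, stood at 2.23 or more at 1 hr. The change of mtHSC70-1 was largest at 3.5 hr, and Fes1B and Fes1C were called below 0 at 3.5 hr.

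Array medians lay between −0.04 and 0.04 on the log2 scale, and no pair of arrays held identical values. Of 10 marker genes of guard cells, phloem, trichomes, flowers and mesophyll, 0 were called with limma in Col-0 at 1 and 25 hr, nor in the other accessions. Among them CAB2 in Col-0 at 1 hr (−0.35) and SUC2 in Ts-1 (−0.44) passed the adjusted p alone. In Col-0 at 3.5 hr the guard cell gene KAT1 rose by 0.98, and the guard cell gene MYB60 (−0.57) and the mesophyll gene CAB2 (−0.51) fell. The part of these shifts in the HSP70 values at 3.5 hr was not tested.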

How the data were processed

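Per the labels, total RNA of whole rosettes was hybridised to Affymetrix AraGene 1.1 ST arrays. The authors summarised them with RMA on a Brainarray TAIR annotation. The deposited values are of another kind than log2 values: they are digits of linear RMA values without a decimal separator, and powers of 10 were placed as described above. The study's gene list was read only to choose that power. The genome build of the probes is not given in the sources used here. The test fixed for log2 values was run on log2 of the placed values: limma 3.58.1 in R 4.3.3 with 1 mean for each of 11 groups over 33 arrays, without filter, and Benjamini-Hochberg adjustment over 27826 loci within each contrast. The same test was also run on simulated data placed at the smallest change without the list. That run did not cover the placing from the list used for HSP70-4, and its outcome is not given here. Of the 27826 loci, 27241 were in the TAIR10.1 table. The columns not used were 0. All 10 genes are named, with the 2 most changed called genes of each partner list in Col-0 at 1 hr and the 2 loci most like each gene. The genes and lists were chosen with earlier results of these data known. Alternatives were other placings, fold limits, a robust fit, treat, median centring, a replicate block, only the groups compared, and each array left out. With 3 arrays a group, the number of arrays limits the precision.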

Additional observations from a re-analysis of the deposited data

Results flagged for a closer look

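Differences in the response to HL between time-points in Col-0 passed the direct test for 3 of the 10 genes, beside 16.7% of all loci. Whether this count exceeds that share was not tested. For HSC70-2 the log2 response at 1 hr minus that at 3.5 hr was 0.77 (adjusted p = 0.00544, limma). For HSC70-3 the same difference was 0.52 (adjusted p = 0.0274), and the response at 1 hr minus that at 25 hr was 0.61 (adjusted p = 0.0158). Both differences of HSC70-3 lost their call when certain single arrays were left out, as described above. For HSP70B the difference of 1 hr from 3.5 hr was 0.53 (adjusted p = 0.00335), and the response at 3.5 hr minus that at 25 hr was −0.54 (adjusted p = 0.00304).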

How the results depend on the processing

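Of 30 called changes of the HSP70 genes, 16 kept their direction and their call under all of one set of alternatives. These were the other placings, the robust fit, median centring, the replicate block, only the groups compared and each array left out. Treat and other fold limits were not part of that count. Under treat or a 2-fold limit fewer genes passed, as given below. Placing all values at the smallest change turned HSP70-4 to −0.67, −0.995 and −1.27 in Col-0 at 1, 3.5 and 25 hr, −1.12 for Ga-0 and −0.94 for Ts-1, and a circular mean of the digits gave −0.67, −1.27, −1.12 and −0.94 for these except 3.5 hr, since neither uses the list. In an alternative chosen after seeing the data, the LL change of HSP70-4 between 1 and 3.5 hr was 1.83. Without a fold limit the counts were 5 at 1 hr, 5 at 3.5 hr and 6 at 25 hr in Col-0, 6 for Ga-0 and 5 for Ts-1. They were 5 between accessions in LL and 5 between LL times. With a 2-fold limit, or with treat against 1.4-fold, they were 1 at 3.5 hr, 1 at 25 hr, 2 for Ga-0, 1 for Ts-1 and 1 between accessions in LL, and with a 2-fold limit 1 between LL times. In the robust fit 1 gene differed between accessions in LL, 3 in the response between accessions and 8 between time-points, and at an unadjusted p these responses gave 3 and 7. The cause of these shifts in the robust fit was not tested. Shares of all loci under these alternative limits and fits are not given here, so these counts have no background beside them. Leaving out 1 array gave 3 to 4, 2 to 4 and 4 to 6 genes in Col-0 at 1, 3.5 and 25 hr, 4 to 5 for Ga-0, 3 to 4 for Ts-1, 1 to 2 between accessions in LL, 0 in the response between accessions, 2 to 4 in that between time-points, 2 between LL times and 0 between LL days. A replicate block left all 30 calls in place. Same-numbered arrays correlated at −0.10 to 0.25, with 7 of 15 pairs over 0.1, and differently numbered arrays at −0.28 to 0.21. The main fit used no pairing, and whether the numbers mark a shared replicate effect was not tested.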
